A study of Drosophila melanogaster with 3 samples.

Results

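The 10 genes described here are the muscle regulator Mef2 and 9 genes of muscle structure, Mhc, Mlc2, bt, Tm1, Tm2, up, wupA, TpnC73F and Zasp52, out of 18164 annotated genes. They were given as a list, and a peak was counted for a gene where its summit lay between 1 kb upstream of the gene and the gene's end. The series mapped Bab1, a transcription factor of the BTB family, by chromatin immunoprecipitation and sequencing (ChIP-seq). All samples came from 1 transgenic Drosophila melanogaster strain, named bab1-RA (bab1-s)-GFP, which stably expresses Bab1 with GFP at its C terminus, and they were whole adult females of unknown age. There was 1 group of 3 samples, labelled as biological replicates, the antibody was against GFP, and no second genotype, sex or stage was compared. Untagged flies were not analysed here, so a peak below is a place where the GFP antibody enriched DNA, and binding by Bab1 cannot be told apart from background of the immunoprecipitation.

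Mef2 is a MADS-box transcription factor that muscle precursors need in order to differentiate, and genes of the contractile apparatus are among its known targets in the fly. The sarcomere, the unit that shortens, is built from thick filaments of myosin and thin filaments of actin, which are anchored at the Z disc. On the thin filament, tropomyosin and the 3 troponins block myosin until calcium binds troponin C. Bab1 is known for its part in abdominal pigmentation, in forming the ovary and in patterning legs along their length. The DNA-binding domain of Bab proteins is known to favour A- and T-rich DNA with TA or TAA repeats.

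Sites of the thin filament genes Tm1 and TpnC73F are shown as examples, a promoter and 2 introns of 1 gene beside a site at a neighbouring gene's start. All 4 are in the authors' list of peaks that passed a cutoff on the irreproducible discovery rate (IDR), which asks whether replicates rank a peak alike. Tm1 encodes a tropomyosin, and its windows of 151 bp are centred on the summits at chr3R:15281165-15281315, chr3R:15291778-15291928 and chr3R:15293668-15293818. The site counted for TpnC73F, a troponin C gene, is the bases around the summit that lie outside exons, at chr3L:17045039-17045139. All are given 5′ to 3′ on the plus strand of dm6 from the RefSeq sequence, and capitals mark the patterns searched for, which are named with the motif counts.
Tm1 promoter site: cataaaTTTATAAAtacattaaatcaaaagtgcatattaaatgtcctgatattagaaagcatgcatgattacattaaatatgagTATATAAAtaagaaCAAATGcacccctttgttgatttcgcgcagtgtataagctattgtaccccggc
Tm1 first intron site: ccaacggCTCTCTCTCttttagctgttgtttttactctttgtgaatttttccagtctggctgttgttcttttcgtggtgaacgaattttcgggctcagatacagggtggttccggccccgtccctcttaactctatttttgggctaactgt
Tm1 second intron site: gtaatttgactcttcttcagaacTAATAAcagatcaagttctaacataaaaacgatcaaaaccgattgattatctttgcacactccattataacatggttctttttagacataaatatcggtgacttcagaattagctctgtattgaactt
TpnC73F site: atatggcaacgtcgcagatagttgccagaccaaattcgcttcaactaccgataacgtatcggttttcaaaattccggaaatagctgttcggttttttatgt
The Tm1 promoter site held 30.5% G and C, with 3 matches to the TATA box, which overlap a TA repeat at one place, and 1 E box. The first intron site of Tm1 held 45.7% G and C and a run of GAGA matches, and the second held 31.1% and 1 TAA repeat. The TpnC73F site held none of the 7 patterns searched for.

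Of the 10 genes, 4 carried a summit of the IDR list, Mef2, Tm1, TpnC73F and Zasp52, against 37.8% of all annotated genes and 44.3% of the protein-coding ones. In the list called on the pooled replicates, which runs down to much weaker peaks, 7 of the 10 had a summit, with Mhc, Tm2 and bt added, against 60.5% of all genes. In each replicate's top list, its 6896 strongest peaks, the same 3 genes, Mef2, Tm1 and Zasp52, had a summit, against 36.4%, 37.0% and 36.2% of all genes in replicates 1, 2 and 3. So 3 genes had one in every replicate's top list, against 28.5% of all genes. In the whole lists of replicates 1, 2 and 3, 6, 8 and 8 of the 10 genes had a summit, against 59.7%, 59.3% and 60.4% of all genes, and 6 had one in all of them, against 52.8%. Counting only IDR summits whose nearest transcription start belonged to the gene left Mef2, Tm1 and Zasp52, 3 of 10, against 28.2% of all genes, and the count within 250 bp of a start was also 3, against 29.3%. The genes wupA and Mlc2 had no summit in any of the 5 lists, while 68.0% of all genes had one in at least 1 list. With the gene body alone the count was 3 of 10, against 17.4% of all genes, and the 3 genes were each longer than 10 kb. With 1 group no test was made, and at 10 genes each call moves a share by 10 percentage points. Flies were used whole, so a weak signal in many cells and a strong signal in few cannot be told apart at any of these genes.

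**Figure D1:**
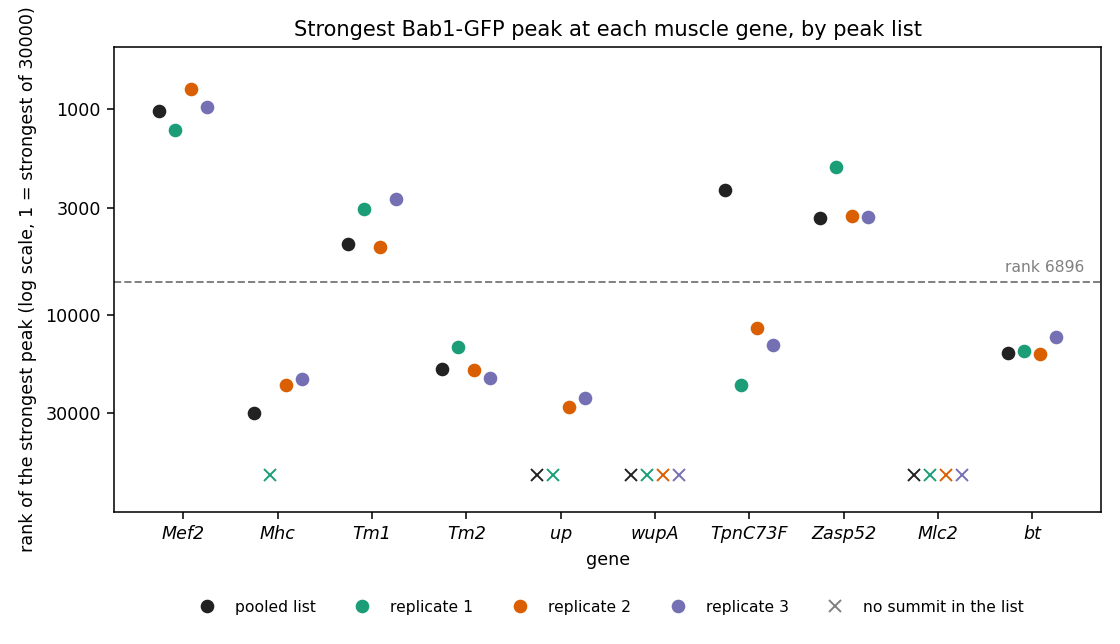
Rank of the strongest peak over each of the 10 genes and the 1 kb before it (log scale, strongest at the top) in the pooled list and in replicates 1 to 3, each of 30000 peaks, with crosses for lists without a summit and a dashed line at rank 6896. Mef2 lay between ranks 794 and 1261 in all of them, Tm1 and Zasp52 were above the line throughout, and wupA and Mlc2 had crosses only.

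The 4 genes held 11 IDR peaks. Their median signal, the strength value given by the peak caller, was 324.2, against 320.5 over all 6896 IDR peaks, and their median rank in the list was 3378, where 3448 peaks make up the stronger part. Of the 11 peaks, all 3 top lists held 5 (45.5%), against 57.0% of all IDR peaks, where a peak of the replicate had to hold the IDR summit. Where the peaks had to overlap over at least 50% of both lengths the count was again 5 of 11, against 36.0% of all IDR peaks, so which share is higher depends on the rule. A summit lay within 250 bp of an annotated transcription start site (TSS) for 4 of the 11 (36.4%), against 66.0% of all IDR peaks, and the median distance was 1768 bp against 114 bp. So the peaks at these genes were of ordinary strength for the list, and 7 of 11 lay more than 250 bp from any start.

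Mef2, at chr2R:9913496-9958858 on the minus strand (FBgn0011656, 45.4 kb, 3 annotated starts), had the most IDR peaks of the 10 genes. Its 4 summits compare with 4 or more in 1.49% of all genes, most of which are shorter, and all 3 top lists held each of them. Per kb it had 0.0863 IDR peaks, against 0.0515 for the genome. The strongest, at chr2R:9949548-9949818, lay in an intron 4918 bp from the nearest start, which was Mef2's own. It had a signal of 593.4 and rank 1020 in the IDR list. Its ranks were 2690, 794 and 975 in replicates 1, 2 and 3, with signals of 112, 348.6 and 144.9, so it was among the 1000 strongest peaks of replicates 2 and 3 but not of replicate 1. The second, at chr2R:9942863-9943086, lay in a 5′ untranslated exon 1768 bp downstream of the second start, with a signal of 478.7 and rank 1594. Replicates 1, 2 and 3 ranked it 1261, 1703 and 3422, and it was the strongest Mef2 peak of replicate 1.

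The peak at chr2R:9958649-9958968 was the one at a Mef2 promoter, with its summit 59 bp downstream of the first start, a signal of 459.7 and rank 1726. Its ranks of 1494, 2554 and 2290 averaged 2113 ± 552 (SD, n = 3). The fourth, at chr2R:9955252-9955675 in an intron, was the weakest at 333.1 and rank 3216, with ranks of 3685, 3460 and 4216 that averaged 3787 ± 388 (SD, n = 3). The order of the other 3 was not the same in the replicates, and their ranks overlapped.

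The 3 starts of Mef2 differed. The first start, used by 2 of 11 annotated transcripts, had a summit within 250 bp in every list. The second, used by 1 transcript, had none in any list. The third, used by 8 transcripts, had a summit 239 to 290 bp upstream in the pooled list and in every replicate, at rank 11016 in the pooled list and at 11775, 11048 and 19354 in replicates 1, 2 and 3, all outside the top lists. Over the whole gene the pooled list had 19 summits, which is 0.41 per kb against 0.224 per kb for the genome. The whole replicate lists had 16, 18 and 16 summits (16.7 ± 1.15, SD, n = 3), and each top list had 5.

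A much stronger peak lay just beyond the edge used for Mef2. At chr2R:9959568-9960126 the IDR list had a peak of signal 2469 and rank 46, whose summit was 1040 bp upstream of the first start of Mef2, 40 bp outside the 1 kb. Its ranks were 36, 56 and 47 in replicates 1, 2 and 3, with signals of 848.3, 1127 and 520.5. The nearest start to it was that of Pdrg1, at 166 bp, and it lay in the regions of Pal1 and Pdrg1. With 2 kb upstream in place of 1 kb, Mef2 had 5 IDR peaks, and this one was the strongest of them.

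**Figure D2:**
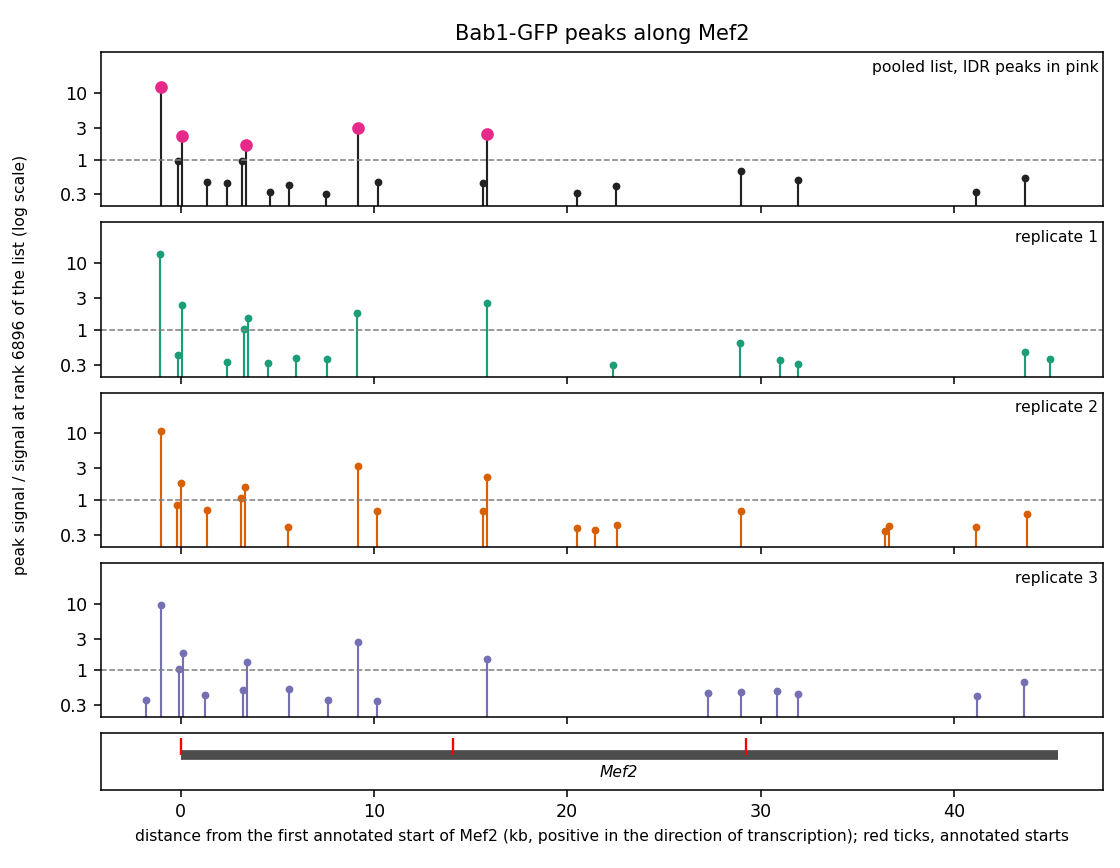
Summits along Mef2 by distance from its first annotated start (kb), with the height of each line giving the peak's signal divided by the signal at rank 6896 of the same list (log scale); pink marks IDR peaks and red ticks the 3 annotated starts. The tallest line in each panel stands 1040 bp upstream in the IDR list, and no line at the other 2 starts rises above the dashed level of 1.

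Of the thick filament genes, none of the 3 had an IDR peak. Mhc, which encodes the muscle myosin heavy chain, lies at chr2L:16766566-16788766 (FBgn0264695, 22.2 kb). Its summit in the pooled list had a signal of 58.09 and rank 29729 of 30000, 83 bp downstream of the first of 5 starts, and the lowest signal in that list was 57.65. Replicate 1 had no summit at Mhc. Replicate 2 had 4, the strongest at rank 21819 with a signal of 40.64, and replicate 3 had 2, the stronger at rank 20510 with 24.35. The stronger one of replicate 3 lay in the 3′ untranslated region, nearest the start of Cyt-b5-r. The other, at rank 28766, was 89 bp downstream of the fourth start of Mhc. The nearest IDR summit to the region of Mhc was 22.4 kb away, at the start of LSm7.

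Projectin, the giant kinase-containing protein that links thick filaments to the Z disc, is encoded by bt, at 724400 to 776474 of chromosome 4 (FBgn0005666, 52.1 kb). The pooled list had 2 summits there, the stronger with a signal of 102.1 and rank 15258, 127 bp upstream of the second start. The replicates had 4, 8 and 5 (5.67 ± 2.08, SD, n = 3), the strongest at rank 14926 with a signal of 33 in replicate 1, 15387 with 55.18 in replicate 2 and 12708 with 34.97 in replicate 3. These best summits lay at different places, 20 bp upstream of the first start in replicate 1, 962 bp upstream in replicate 2 and 17202 bp from any start in replicate 3. None was in a top list. Counted per length, bt had 0.0377 pooled summits per kb and Mhc 0.0431, against 0.224 for the genome.

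The thin filament genes ranged widely. Tm1, at chr3R:15278220-15308779 (FBgn0003721, 30.6 kb, 8 starts), had 3 IDR peaks, all in the weaker part of the list. The promoter site, whose sequence begins the set above, had a signal of 274.1 and rank 4530, with its summit 131 bp upstream of the second start. Replicates 1 and 2 had it at ranks 4707 and 5040, with signals of 81.99 and 132.3, while replicate 3 had it at 11603 with 37.52, outside that replicate's top list. The first intron site had a signal of 214.5 and rank 6413, and replicates 1, 2 and 3 ranked it 6000, 5677 and 8555. The second intron site had a signal of 251.8 and rank 5133, with ranks of 4684 and 4674 in replicates 1 and 2, and no peak of replicate 3 held its summit. So replicates 1 and 2 had all 3 sites in their top lists, and replicate 3 had none of them there. Replicate 3 did have top-list summits close by, at rank 5585 with a signal of 61.67 for one 321 bp upstream of the second start and at rank 4694 with 68.25 for one 639 bp downstream of the eighth start, while the first intron site lay 907 bp downstream of it. Replicate 1 also had a summit 336 bp upstream of the second start, at rank 4531, beside the one at the promoter site, so the lists place their summits there differently.

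In all, replicate 3 had 5 summits of Tm1 in its top list, against 6 in replicate 1 and 4 in replicate 2 (5 ± 1, SD, n = 3). Its strongest, rank 2739 with a signal of 91.3, lay in an intron 2297 bp from the nearest start. The strongest of replicate 1, rank 3053 with 104.9, was 45 bp upstream of the sixth start. At that start the other lists had weaker summits, rank 7301 in the pooled list, 11828 in replicate 2 and 5272 in replicate 3. The fifth and seventh starts also had a summit within 250 bp in every replicate, at ranks of 9477, 8227 and 8363 for the fifth and 13241, 13822 and 9249 for the seventh. The eighth start shared the summits of the seventh. The first had summits at ranks 20996, 13446 and 25531, which were nearest the start of MRG15. Tm1 had 25 summits in the pooled list and 27, 27 and 30 in the replicates (28 ± 1.73, SD, n = 3). Its 0.792 pooled summits per kb was the highest among the 10 genes, against 0.224 for the genome. Not all of the 25 pooled summits had a Tm1 start nearest. Those at ranks 10181, 28387 and 14980 were nearest the starts of l(3)neo43, MRG15 and CG45218. Those towards the 3′ end, at ranks 29251, 24116, 14812 and 26397, were nearest a start of Tm2.

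**Figure D3:**
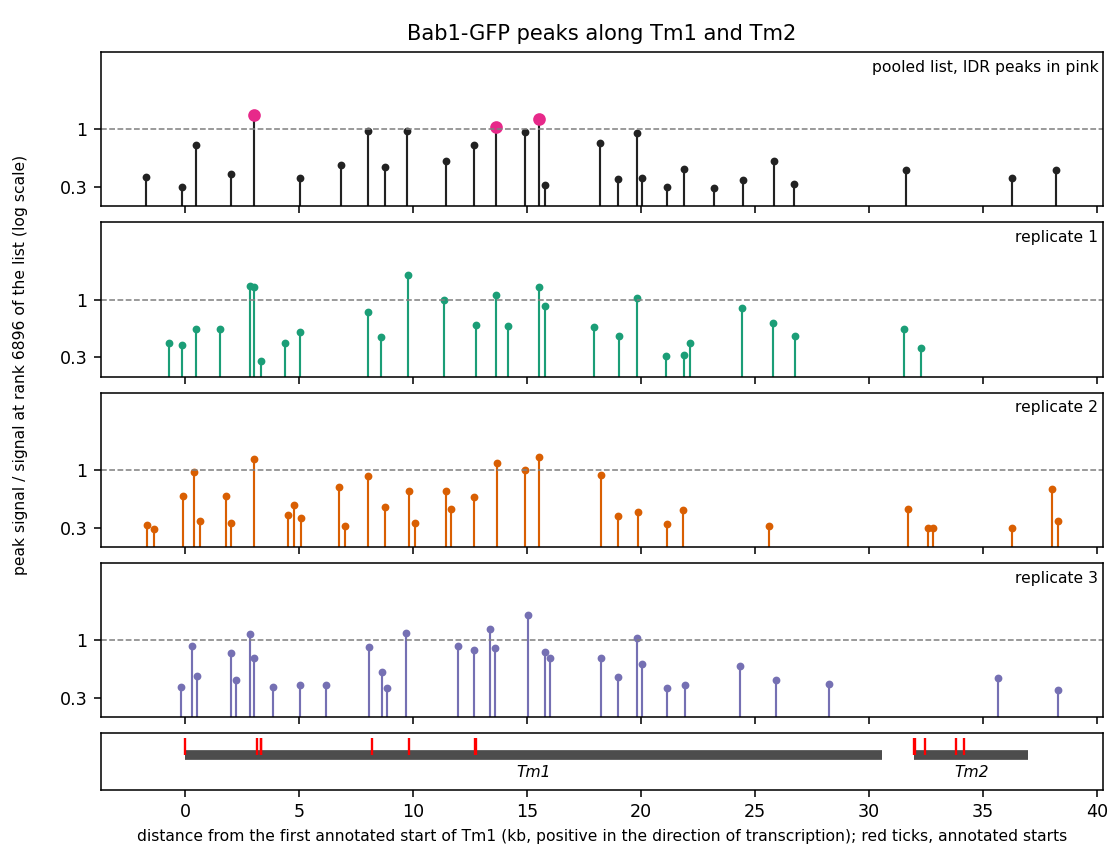
Summits along Tm1 and its neighbour Tm2 by distance from the first annotated start of Tm1 (kb), with line height giving the signal divided by that at rank 6896 of the same list (log scale), pink for IDR peaks and red ticks for starts. Lines crowd Tm1 in every panel, few exceed the dashed level of 1 by much, and over Tm2 all stay below it.

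Tm2, which encodes the other tropomyosin, follows Tm1 at chr3R:15310193-15315197 (FBgn0004117, 5.01 kb) and had no IDR peak. Its strongest pooled summit had a signal of 87.15 and rank 18367, 349 bp upstream of the first of 5 starts. Replicates 1 and 2 had their best summit at a similar place, 440 bp upstream at rank 14299 and 279 bp upstream at rank 18491. The single summit of replicate 3, rank 20171, lay 1512 bp from a start, in the 3′ untranslated region. The nearest IDR summit was 4.91 kb from the region of Tm2, at CG6276.

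Troponin T is encoded by up, at chrX:13593474-13602578 (FBgn0004169, 9.11 kb), and troponin I by wupA, at chrX:18105568-18116922 (FBgn0283471, 11.4 kb). At up the pooled list and replicate 1 had no summit. Replicate 2 had 1 at rank 27971 with a signal of 32.6, and replicate 3 had 1 at rank 25371 with 20.6, at another place. At wupA there was none in any list, although IDR summits lay 4.34 kb away, at Mvb12, and 2.57 kb from up, at CG11178. The other gene without any summit was Mlc2, the regulatory light chain of myosin, at chr3R:30171438-30174551 (FBgn0002773, 3.11 kb), where the nearest IDR summit was 19.7 kb away. The 100 bp upstream of the first start of wupA (chrX:18116923-18117022) and of Mlc2 (chr3R:30174552-30174651) are shown as promoters without a peak, 5′ to 3′ on the minus strand, which both genes use, with the same patterns in capitals.
wupA upstream: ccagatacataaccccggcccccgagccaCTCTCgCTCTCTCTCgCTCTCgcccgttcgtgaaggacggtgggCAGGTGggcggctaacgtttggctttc
Mlc2 upstream: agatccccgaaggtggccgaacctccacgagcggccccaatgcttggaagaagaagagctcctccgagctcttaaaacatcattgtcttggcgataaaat
That of wupA held 64% G and C, with 5 GAGA matches and 1 E box, and that of Mlc2 held 52% and none of the 7 patterns.

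TpnC73F, at chr3L:17046063-17048390 (FBgn0010424, 2.33 kb), was counted through a peak that sat at another gene's start. The IDR peak at chr3L:17044852-17045275 had a signal of 382.1 and rank 2460, and its ranks of 3333, 3087 and 2113 in replicates 1, 2 and 3 averaged 2844 ± 645 (SD, n = 3). All 3 top lists held it, with signals of 100.1, 174.6 and 103. Its summit was 26 bp upstream of the start of Pop5, a subunit of the RNA-processing enzymes RNase P and RNase MRP, which is transcribed away from TpnC73F. It was 999 bp upstream of the first start of TpnC73F, 1 bp inside the 1 kb. The summits of the same peak in replicates 1, 2 and 3 were 1001, 1001 and 1007 bp upstream and so fell outside. Within the region the replicates had only weaker summits, the best at ranks 21871, 11554 and 13998. The start nearest to these was that of rogdi in replicates 1 and 2 and that of Pop5 in replicate 3. No IDR or pooled summit lay within 250 bp of a start of TpnC73F, and in the gene body alone TpnC73F had 0 IDR peaks.

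The Z disc gene of the set is Zasp52, which encodes a PDZ and LIM protein that binds alpha-actinin, at chr2R:15762565-15817004 on the minus strand (FBgn0265991, 54.4 kb, 3 starts). It had 3 IDR peaks, each found in the top lists of 2 of the 3 replicates. The promoter peak at chr2R:15816899-15817107 had a signal of 324.2 and rank 3378, with its summit 46 bp upstream of the first start, within the overlapping gene tun. Its ranks of 1912, 7235 and 3530 spread over 4226 ± 2729 (SD, n = 3), with replicate 2 just outside its top list. The intron peak at chr2R:15784904-15785098 had a signal of 296.2 and rank 3992, 8949 bp from the last start of the gene, with ranks of 4612, 3305 and 8145. The other intron peak, at chr2R:15781231-15781354, had 260 and rank 4905, with ranks of 4421, 8384 and 3347. So the replicate that ranked a peak low differed, being replicate 2 for the promoter and the intron site at chr2R:15781231-15781354 and replicate 3 for the site at chr2R:15784904-15785098.

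The first start of Zasp52 serves 2 of 22 annotated transcripts. The second, which serves 18, had summits 214, 248 and 226 bp upstream in replicates 1, 2 and 3, at ranks 8748, 12762 and 9261. The pooled list had a summit 267 bp upstream at rank 9334 and another 245 bp downstream at rank 15793. All of these were outside the top lists. Over the gene there were 30 pooled summits (0.541 per kb) and 25, 29 and 25 in the replicates (26.3 ± 2.31, SD, n = 3), against 2 pooled summits over bt, a gene of nearly the same length. The top lists held 4, 1 and 3 of the replicates' summits (2.67 ± 1.53, SD, n = 3). Some of the 30 pooled summits were nearest a start of the overlapping gene tun, the strongest of these at rank 8707. The 2 pooled summits at bt were nearest a start of bt.

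A stronger peak than any of these lay 90 bp beyond the 3′ end of Zasp52, at chr2R:15762307-15762640. It had a signal of 943.3 and rank 427, with ranks of 694, 498 and 235 in replicates 1, 2 and 3, and no annotated gene region held it. The nearest start to it was one of Zasp52, at 13587 bp. On the upstream side a peak of 206 and rank 6726 lay 645 bp outside the 1 kb, in an intron of tun.

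**Figure D4:**
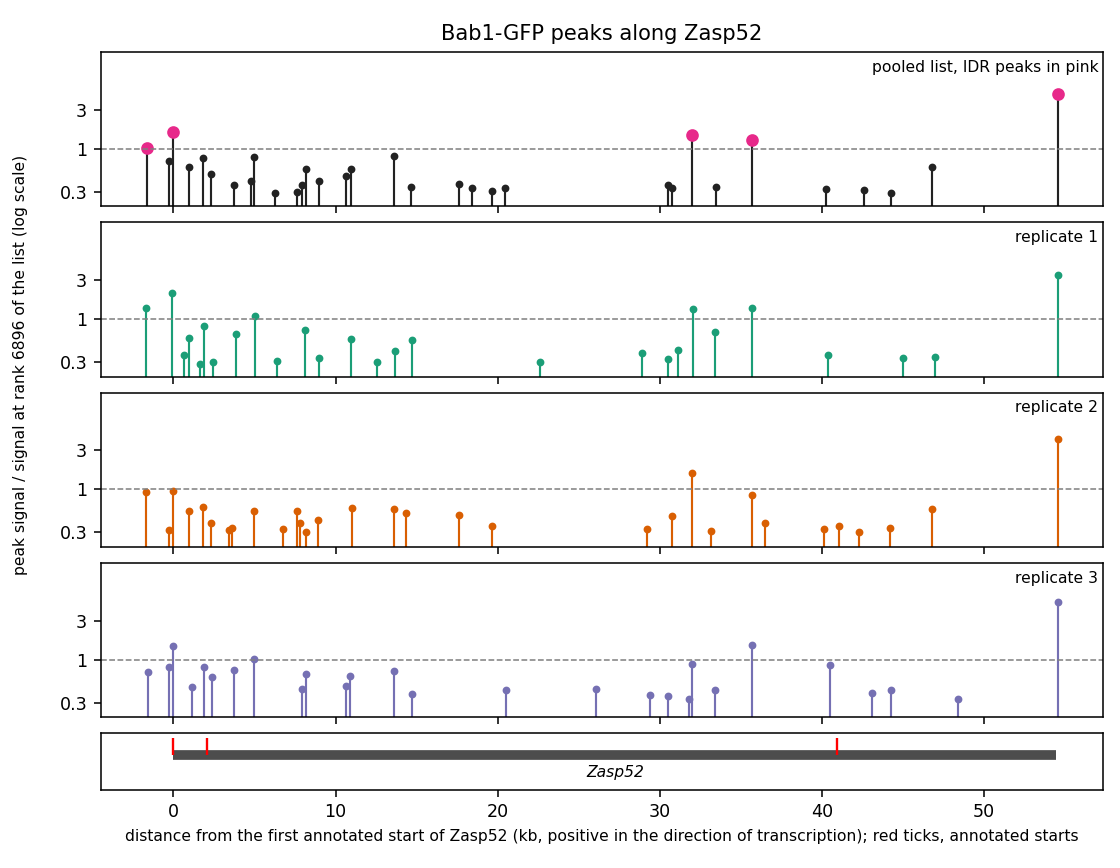
Summits along Zasp52 by distance from its first annotated start (kb), with line height giving the signal divided by that at rank 6896 of the same list (log scale), pink for IDR peaks and red ticks for starts. The tallest line in each panel stands at the far right, 90 bp beyond the gene's end in the IDR list, and the 3 IDR peaks inside the region rise little above the dashed level of 1.

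Ordered by the best rank in the pooled list, the genes ran Mef2 (1020), TpnC73F (2460, through the summit 1 bp inside its region), Zasp52 (3378), Tm1 (4530), bt (15258), Tm2 (18367) and Mhc (29729). The best ranks of Mef2 in the replicates, 794 to 1261, did not overlap those of any other of the 10 genes. Those of Zasp52, 1912 to 3347, overlapped those of Tm1, 2739 to 4674, and those of bt, 12708 to 15387, overlapped those of Tm2, 14299 to 20171, so these replicates do not set the order within these pairs. Those of TpnC73F, 11554 to 21871, came after those of Zasp52 and Tm1 in every replicate and overlapped those of bt and Tm2. They belong to other summits than its pooled rank does, and the starts nearest those summits were of rogdi and Pop5. The peak behind the pooled rank had ranks of 3333, 3087 and 2113 in replicates 1, 2 and 3, with summits just outside the region. These overlap the ranks of Zasp52 and Tm1, so the replicates do not give TpnC73F second place.

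By gene length, the shares of genes with an IDR peak differed over the whole genome. Of the 6 genes of 10 kb or longer, 3 had an IDR peak, against 58.4% of all genes of that length, and of the 4 shorter genes 1 had, against 35.2%. Having 3 or more IDR summits, as Mef2, Tm1 and Zasp52 did, was the case for 3.30% of all genes, of which 16130 are shorter than 10 kb. No such share was taken among genes of similar length. Per kb, Mef2 had 0.0863 IDR peaks, Tm1 0.0951 and Zasp52 0.0541, against 0.0515 for the genome. These 3 genes were picked by their count of IDR summits, so their values per kb do not stand for the whole set. TpnC73F had 0.3 per kb through its single peak, and Mhc, Tm2, up, wupA, Mlc2 and bt had 0. Of the 39 annotated starts of the 10 genes, 3 had an IDR summit within 250 bp (7.69%), one each of Mef2, Tm1 and Zasp52, against 26.5% of 23581 starts in the genome. With the pooled list the counts were 12 of 39 (30.8%) against 45.0%, and with the whole lists of replicates 1, 2 and 3 they were 16, 14 and 11 of 39 (41.0%, 35.9% and 28.2%), against 45.0%, 44.0% and 44.2%. Starts of 1 gene share peaks, so these are not 39 independent values.

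The 61 other muscle genes, listed by role, carried an IDR summit in 25 cases (41.0%), against 37.8% of all genes. In every replicate's top list the count was 23 (37.7%) against 28.5%, and the replicates' top lists held 26, 25 and 29 of them (26.7 ± 2.08, SD, n = 3). The counts were low for filament genes and higher for genes of the Z disc and of muscle attachment, which were grouped together. Of 7 other thick filament and myosin genes 1 had an IDR summit, Strn-Mlck, a myosin light chain kinase gene (250.2), and that summit was 45 bp from the start of CG8366. Of 12 thin filament and actin genes 3 had one, namely tmod, the gene of the thin filament cap tropomodulin (275.2), Lasp (363.9) and cpa, an actin capping protein gene (206.1), the last at the start of shg. The 4 actin genes on the list, Act57B, Act79B, Act87E and Act88F, had 0 IDR summits, and 3 of them had no summit in the pooled list or any replicate, while 68.0% of all genes had one in at least 1 list. The 4 other troponin C genes had 0 IDR summits and 2 of them had a pooled summit, against 60.5% of all genes, and 1 had no summit in any list. These 2 subsets were picked out after their values were seen.

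Of 11 genes of the Z disc and of muscle attachment, 7 had an IDR summit (63.6%), against 37.8% of all genes and 58.4% of those of 10 kb or longer. The strongest was at Vinc, the vinculin gene, with a signal of 1389 and rank 184, 81 bp from its start and at ranks of 259, 129 and 281 in replicates 1, 2 and 3. The integrin gene mys (450.9), the talin gene rhea (310.3) and CAP (484.7) had their summit nearest their own start. The summits at Actn, the alpha-actinin gene (502.9), at Zasp66 (248) and at the integrin gene if (322.9) were nearest the starts of usp, Cdc6 and mRpL22. The median length of these 11 genes was 14.4 kb, against 12.5 kb for the 7 thick filament and myosin genes and 2.37 kb for the 12 thin filament and actin genes, and the part of length in the difference was not tested.

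Of the other roles, calcium handling had 2 of 4 genes with an IDR summit, the calcium pump gene SERCA (263.6) and the exchanger gene Calx (263). Transcription and splicing factors of muscle had 7 of 17 (41.2%), near the 37.8% of all genes. Calcium handling and myoblast fusion each had 50%, on few genes. The median lengths of the genes of calcium handling, factors and fusion were 26.2, 15.2 and 21.7 kb. Among the factors the strongest was mbl, a splicing regulator gene (779.1, rank 624), followed by zfh1, which encodes a zinc finger and homeodomain factor (503.5), and sd, the DNA-binding partner of Vestigial (498.1). The splicing regulator gene bru1 (461), the flight muscle factor gene ewg (423), the RNA-binding protein gene how (316.6) and nau, the fly MyoD gene (209.1), came after them. Myoblast fusion had 5 of 10, namely the cell adhesion gene kirre (920.1), mbc (642.2), blow (302.4), Ced-12 (251.8) and rols (240.2). The gene kirre spans 394.1 kb and had 8 IDR summits. The strongest summit was nearest the gene's own start for 2 of the 5 fusion genes, blow and Ced-12, while that of mbc lay 44 bp from the start of Nup98-96 and those of kirre and rols were 1892 and 1823 bp from the starts of CG32795 and CG43993. That of nau was nearest the start of CG10300, at 2611 bp, and the other 6 factor genes had their own start nearest. Of the 61 genes, 36 were 10 kb or longer and 19 of these had an IDR summit (52.8%), against 58.4% of all such genes, while 6 of the 25 shorter ones had (24%), against 35.2%.

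**Figure D5:**
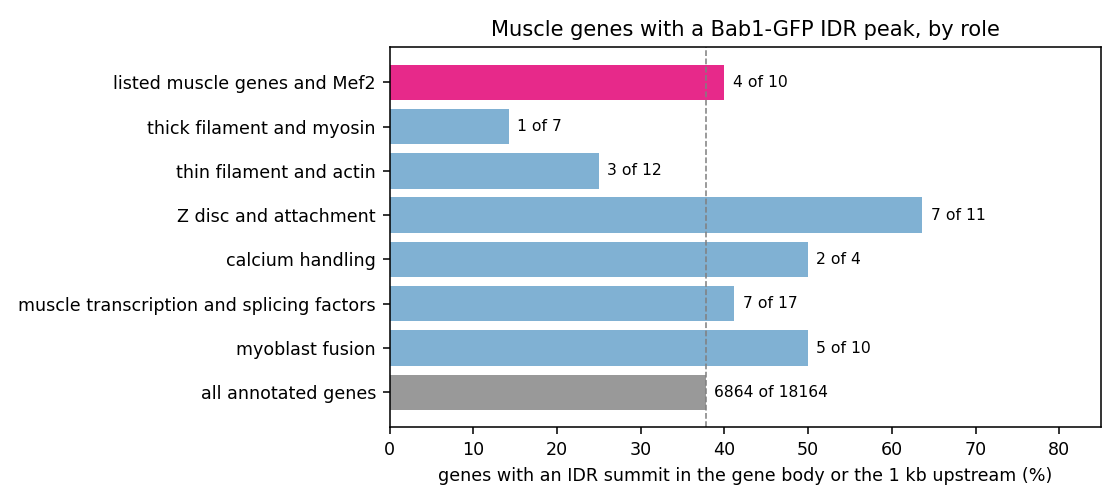
Share of genes with an IDR summit in the gene or within 1 kb before it (%), for the 10 genes described here, for 61 other muscle genes by role, and for all annotated genes, with counts beside the bars and a dashed line at the share of all genes. The thick and thin filament genes, at 1 of 7 and 3 of 12, lie left of the line at 37.8%, and the Z disc and attachment genes, at 7 of 11, lie right of it.

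The 7 patterns were searched on both strands in windows of 50 bp on either side of each summit. These are shorter than the 151 bp shown for Tm1. The GAGA run and the TAA repeat shown at its intron sites are not inside them, and 1 of the 3 TATA boxes of its promoter site is. The patterns were TATCGATA (the DRE), GAGAG (GAGA factor), CANNTG (the E box), the core of the MEF2 site (CTA, any 4 bases, TAG), TATAAA (the TATA box), TATATA and TAATAA, of which TATAAA and TATATA can overlap. Of the 11 windows at the 10 genes, 0 held the MEF2 core, against 1.93% of all 6896 IDR windows, and 0 held the DRE, against 4.41%. The E box was in 3 windows, against 39.4%, and the GAGA pattern in 1, at the Mef2 intron site of rank 3216, against 11.7%. TATATA was in 2 windows, the strongest Mef2 peak and the Tm1 promoter site, against 7.93%, and TAATAA was in 1, against 14.8%. TATAAA was in 3, against 16.5%. At 11 windows these counts are descriptions and no more. The G and C content of the windows ran between 22.8% and 57.4%, and the median over all IDR windows was 38.6%.

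In promoters of 300 bp (250 bp before to 50 bp after a start), the MEF2 core was in 3 of the 39 promoters of the 10 genes (7.69%), those being of Tm2, wupA and bt, against 4.98% of 23584 promoters. None of these 3 genes had an IDR peak. The GAGA pattern was in 16 of 39 promoters (41.0%) against 32.4%, TATATA in 15 (38.5%) against 22.0%, and the E box in 26 (66.7%) against 77.4%. TATAAA was in 12 (30.8%) against 41.4%, TAATAA in 6 (15.4%) against 34.0%, and the DRE in 0 against 6.79%. Promoters of 1 gene overlap where its starts are close, as at Tm1 and up, so they are not independent either.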

How the data were processed

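Samples were 3 ChIP-seq libraries of whole adult females in 1 group, with replicate numbers from the labels. The deposited lists hold 30000 peaks for each replicate and for the pooled reads, and 6896 IDR peaks, on dm6, per the labels and the deposited file listings. Each was called against 1 control library, per the file listings, which was not analysed here. What aligned the reads, called the peaks and set the IDR cutoff is not given in the sources used here. Signal values, deposited by the authors, were compared only within a list, and ranks between lists of 30000. The deposited −log10 q values were set aside. Equal list lengths say nothing of depth, which is unknown here, so no intervals are given.

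Genes and starts came from Ensembl release 115 (BDGP6.54) without transposon genes, and sequence from RefSeq. Summits were assigned with Python 3.11.15 and numpy 2.4.6, and the assignment was tested on simulated data. Coordinates are 1-based. The 10 genes, the 61 others and the patterns were chosen with earlier results of these data known. All 10 genes are named, and of the others those with an IDR summit. No test was made between groups, since there was 1 group. Alternatives were other gene regions, peak lists, overlap rules and leaving out each replicate, for which the IDR list itself was not remade. The labels call the replicates biological and do not name separate cultures, so SDs measure the spread between these 3 samples only.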

Additional observations from a re-analysis of the deposited data

How the results depend on the processing

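Of the 10 genes, 4 carried an IDR summit, against 37.8% of all genes. The count was 3 with the gene body alone (17.4% of all genes), with the nearest TSS (28.2%), with a TSS within 250 bp (29.3%) or with the 3448 strongest IDR peaks (22.7%), and 4 with 2 kb upstream (41.3%) or any base of a peak (39.5%). With the pooled list it was 7 (60.5%). Where the count was 3, the genes were Mef2, Tm1 and Zasp52, except that with the 3448 strongest peaks TpnC73F stood in place of Tm1. The IDR list was not remade without a replicate. Here leaving a replicate out meant counting only IDR peaks that both other top lists held, a filter the main count lacks. Counted so, 2 to 4 genes had a summit (27.7% to 29.6%). The 2 genes, without replicate 1, were Mef2 and TpnC73F, the latter through the peak at the start of Pop5. Without replicate 1, Tm1 and Zasp52 had 0 IDR peaks that both other top lists held, without replicate 2 Tm1 had 0 and Zasp52 2, and without replicate 3 Tm1 had 3 and Zasp52 1. Tm1 had 0 and Zasp52 1 among the 3448 strongest, TpnC73F had 0 with the gene body alone, and Mef2 had 4 or more under each of these. Genes with a summit in every replicate's list numbered 6 with whole lists (52.8%), against 3 with top lists (28.5%), 2 with lists of 3448 peaks (14.9%), and 3 with each replicate left out. Of the 11 IDR peaks, 10 were in all 3 whole lists (90.8% of all IDR peaks), an alternative chosen after seeing the data. In the top lists it was 5 (45.5%), against 57.0% of all IDR peaks for the summit inside a peak, 53.5% for summits within 100 bp and 36.0% for reciprocal overlap, which turns the comparison round. For the 61 other genes the count of 25 (41.0%) became 23 with the gene body alone (37.7% against 17.4% of all genes). Of the 61 genes 36 were 10 kb or longer, against 2034 of all 18164. The count was 15 with a TSS within 250 bp (29.3% of all genes), 13 with the 3448 strongest (22.7%) and 43 with the pooled list (60.5%). With a replicate left out in the same way it was 19 to 22 (27.7% to 29.6%). The splits by length and by start were also chosen after seeing the data. For these changes the cause was not tested, beyond the fewer or more peaks each setting takes in.

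No paired analysis was possible because the samples form 1 group. The lists give no read counts, so a gene without a summit had none strong enough to enter a list of 30000, which does not show absence of binding.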
